A study of Mus musculus with 14 samples.

Results

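The SLC25 genes encode the mitochondrial carriers, a family of membrane proteins that move metabolites across the inner membrane of mitochondria. They were taken here as every gene row whose symbol is Slc25a followed by a number, which found 47 of the 24421 rows in the deposited tables. Polyadenylated RNA of 14 mouse samples had been sequenced. Of these, 4 were brown adipose tissue (BAT), which turns fuel into heat, and 4 were perigonadal white fat (WAT), which stores it. All 8 tissue samples came from C57BL/6N mice aged 22 weeks, kept at ambient temperature and fed for 14 weeks on a diet that drew 60% of its energy from fat. The other 6 were a BAT cell line differentiated with insulin, T3, dexamethasone, IBMX and rosiglitazone, of which 3 (BLEB) received 100 µM blebbistatin, which blocks class II myosin motors, and 3 (control) received DMSO, in each case for 24 h from day 7. The replicates are numbered but are not said to be separate animals or cultures, so p-values reflect only how far these samples vary, and some of that variation may be technical.

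The inner mitochondrial membrane lets few metabolites through by itself, and each carrier exchanges or imports a narrow set of them: ADP for ATP, phosphate, acylcarnitines, di- and tricarboxylic acids, amino acids, cofactors or iron. Carriers share a fold of repeated membrane helices, are made in the cytosol, and are inserted by the TIM22 complex. Ucp1, the protein that lets brown fat mitochondria make heat in place of ATP, belongs to the same protein family under another name, and the members were sorted here by the substrate each is known for. Slc25a17 is the exception in location, since it sits in peroxisomes, and Slc25a46 lies in the outer membrane of mitochondria.

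The libraries were of uneven depth. BAT libraries held 1014959 to 2335058 reads in genes and WAT libraries 6859404 to 16091372, of which SLC25 rows took 5788 to 12529 reads in BAT and 16379 to 32598 in WAT. BLEB libraries held 10920307 to 12978198 reads and control libraries 10685378 to 14176846. Levels are given as CPM, the reads per 1e+06 reads in genes with library totals scaled by TMM. Brown adipocyte markers summed to 22373 ± 4391 CPM in BAT and 22.4 ± 5.16 CPM in WAT (SD, n = 4 each). All 9 were called higher in BAT, so the tissue labels hold against them. Skeletal muscle markers summed to 2352 to 36819.9 CPM in BAT, highest in BAT 4, and to 21.1 to 43.9 CPM in WAT, where Ckm and Myh4 had at most 3 reads a library. Macrophage markers summed to 568 to 1452 CPM in BAT and to 13454 to 19062 CPM in WAT, fibroblast markers to 1664 to 2783 CPM in BAT and 7041 to 8240.1 CPM in WAT, and endothelial markers to 1300.4 to 1531 CPM in BAT and 364 to 451 CPM in WAT. In tissue RNA, fewer cells of a type and less RNA per cell cannot be told apart, and the part of these cell types in the differences below was not tested unless a value is given.

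As a share of reads in genes, brown fat carried more carrier RNA than white fat. Before TMM scaling, SLC25 rows took 0.537% to 0.607% of these reads in BAT libraries and 0.203% to 0.239% in WAT libraries. Summed over the 47 members, carriers reached 6227 ± 491 CPM in BAT and 2018 ± 140.3 CPM in WAT (SD, n = 4 each), with every BAT library (5520.1 to 6622 CPM) above every WAT library (1887 to 2217 CPM). Of the 37 members with enough reads to test, 24 rose in BAT, 8 fell and 5 were not called at an adjusted p under 0.05 (limma, Benjamini-Hochberg over 12754 genes). The tissues differed broadly: 30.7% of all tested genes were called higher in BAT and 31.6% lower, 62.3% in all. Among the tested members 64.9% were called higher and 21.6% lower. Their median log2 fold change was 1.08, against -0.05 over all tested genes. These values are relative to reads in genes, which made up 19.1% to 42.3% of the reads behind the deposited RPKM in BAT libraries and 71.1% to 83.03% in WAT libraries. On the RPKM as deposited the family's sums overlapped, at 574 to 1377 RPKM in BAT and 749 to 1044 RPKM in WAT, the median log2 fold change of all tested genes was -1.51, and 8 members were called higher and 14 lower. These are 21.6% and 37.8% of the tested members, where 6.55% of all tested genes were called higher on that scale and 74.3% lower. The 14 included Slc25a1 and Slc25a44, which were called higher relative to reads in genes. Centred on each library's median, the RPKM again gave 24 higher and 8 lower. The directions given below are those relative to reads in genes, after TMM scaling. In CPM, every BAT library stood above every WAT library in 24 members and below in 6. Over all tested genes, 28.4% and 29.8% did so. Members entered the test by read count in either tissue, so these counts cover the tested members and not the whole family. The calls differed by substrate, as the plot of fold changes by substrate shows.

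**Figure D1:**
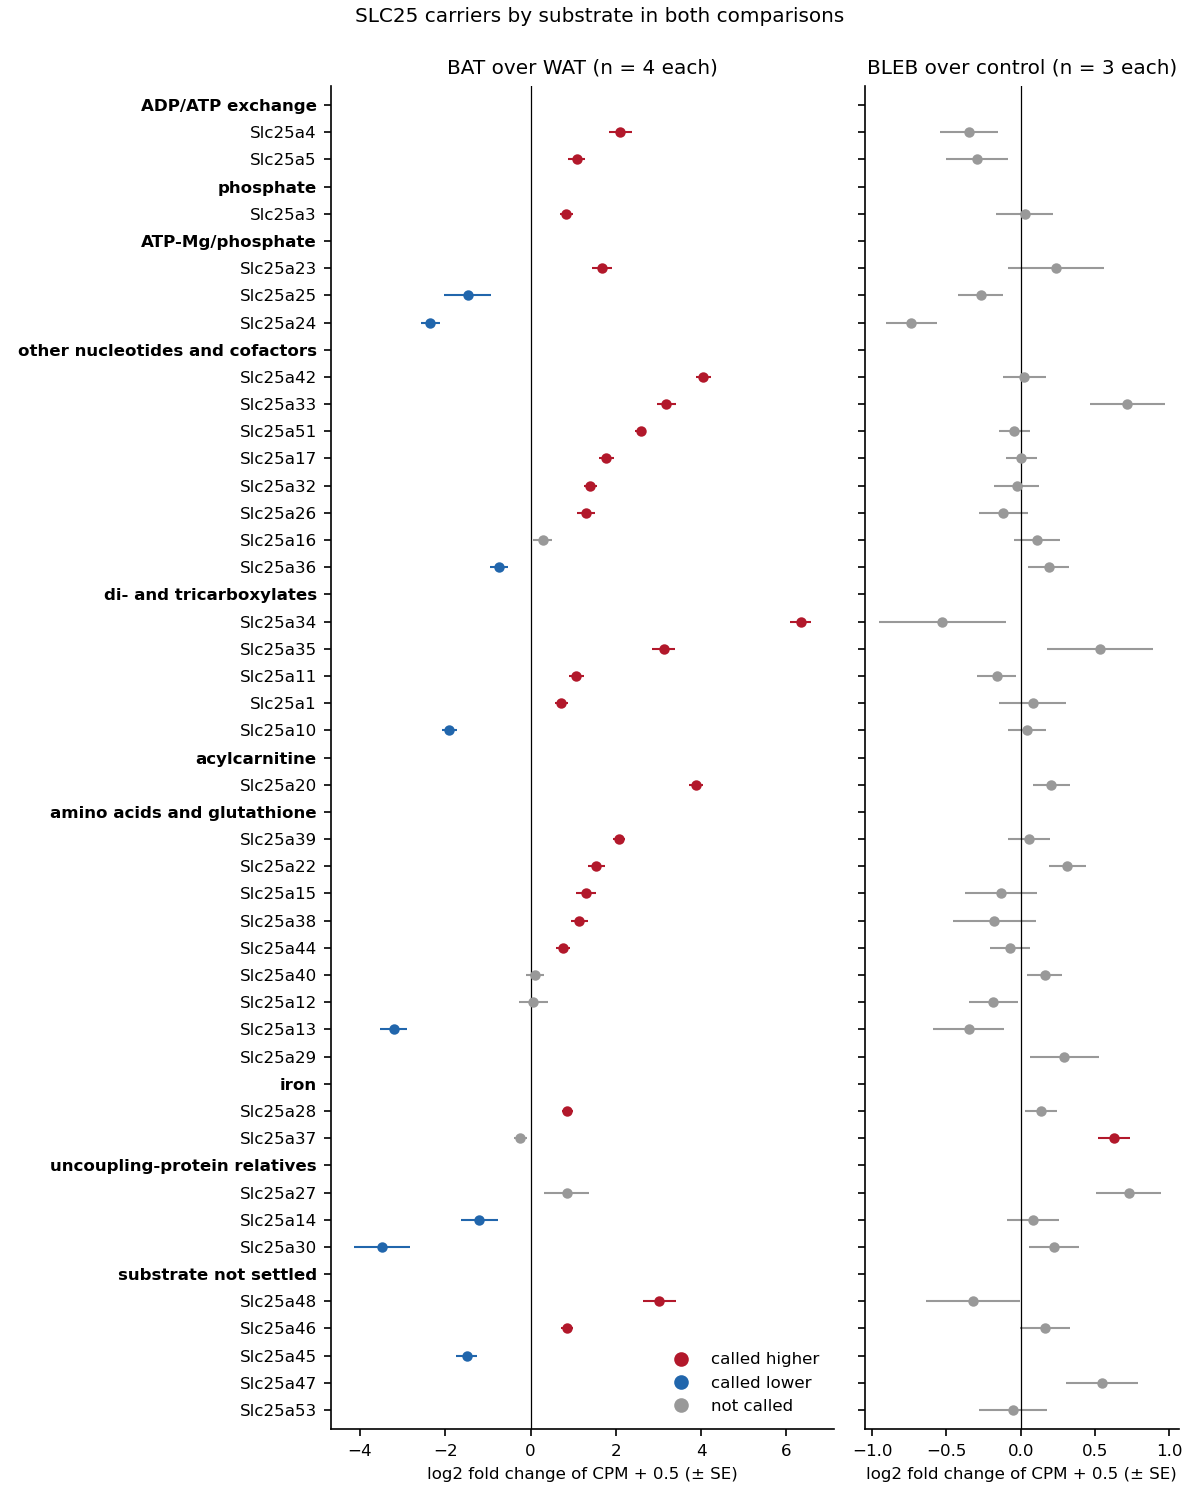
Log2 fold change of CPM + 0.5 for the tested SLC25 members (all but 1), grouped by substrate, with its standard error: BAT over WAT on the left (n = 4 each) and BLEB over control on the right (n = 3 each). Counting the member not drawn, 24 were called higher (red) and 8 lower (blue) in the tissues, and in the cells 1 member, Slc25a37, was called higher.

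The carriers that rose most in BAT were Slc25a34, Slc25a42 and Slc25a20, and those that fell most were Slc25a30 and Slc25a13. Slc25a34 is an orphan carrier grouped by sequence with the oxaloacetate and dicarboxylate carriers. It had 85.9, 134, 202 and 160.0 CPM in BAT, against 1.16, 1.47, 1.08 and 1.20 CPM in WAT. The lowest BAT library thus stood far above all WAT libraries, and the log2 fold change was 6.34 (SE 0.25, adjusted p = 2.31e-09), or 81.0-fold. Slc25a42 carries coenzyme A into mitochondria. It had 226, 244, 301 and 276 CPM in BAT, against 12.3, 14.1, 21.1 and 14.6 CPM in WAT, without overlap, and rose by 4.05 on the log2 scale (SE 0.17, adjusted p = 3.94e-09). Slc25a20 exchanges acylcarnitines for carnitine, the step by which long-chain fatty acids enter the matrix to be oxidised. It had 785, 1132, 1144 and 802 CPM in BAT, against 59.7, 60.7, 74.0 and 63.4 CPM in WAT. Again no library of the tissues overlapped, and the log2 fold change was 3.88 (SE 0.16, adjusted p = 3.86e-09), or 14.7-fold.

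On the falling side, Slc25a30 is a relative of the uncoupling proteins first described in kidney. It had 3.96, 6.08, 1.09 and 0 CPM in BAT, against 19.3, 23.4, 28.2 and 26.2 CPM in WAT. BAT 4 held no read of it, and the difference of -3.48 (SE 0.65, adjusted p = 0.000656) rests on 21 reads in all BAT libraries. Slc25a13, called citrin, exchanges aspartate for glutamate and so feeds the malate-aspartate shuttle. It had 4.41, 2.76, 5.43 and 1.34 CPM in BAT, against 32.8, 33.1, 30.5 and 36.5 CPM in WAT. Here too the tissues did not overlap, at a log2 fold change of -3.21 (SE 0.32, adjusted p = 3.17e-06) and 22 reads in all BAT libraries.

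The promoter windows of these 5 genes are shown because they belong to the members with the largest differences in each direction. Each runs from 250 bases before the RefSeq start to 50 bases after it (GRCm38.p6, 5′ to 3′ on the gene's strand), and capitals mark a motif match.
Slc25a34, chr4:141623785-141624084, minus strand: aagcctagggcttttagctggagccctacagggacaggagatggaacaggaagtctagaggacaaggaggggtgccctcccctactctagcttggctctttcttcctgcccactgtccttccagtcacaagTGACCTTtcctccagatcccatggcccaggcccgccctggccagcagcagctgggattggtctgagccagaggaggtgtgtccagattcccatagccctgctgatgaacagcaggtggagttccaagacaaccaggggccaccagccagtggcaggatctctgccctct
Slc25a42, chr8:70212232-70212531, minus strand: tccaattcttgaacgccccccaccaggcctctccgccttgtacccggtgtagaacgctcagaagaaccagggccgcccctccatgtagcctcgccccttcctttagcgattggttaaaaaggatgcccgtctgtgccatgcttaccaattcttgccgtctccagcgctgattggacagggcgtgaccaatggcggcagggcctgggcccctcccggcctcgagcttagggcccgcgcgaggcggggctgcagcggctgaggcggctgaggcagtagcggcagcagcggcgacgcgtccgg
Slc25a20, chr9:108661886-108662185, plus strand: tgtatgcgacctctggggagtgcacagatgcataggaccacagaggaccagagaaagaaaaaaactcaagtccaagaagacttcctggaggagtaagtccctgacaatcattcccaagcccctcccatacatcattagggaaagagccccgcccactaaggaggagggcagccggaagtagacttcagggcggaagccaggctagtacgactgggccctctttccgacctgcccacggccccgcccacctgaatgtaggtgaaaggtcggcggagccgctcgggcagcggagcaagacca
Slc25a30, chr14:75786988-75787287, minus strand: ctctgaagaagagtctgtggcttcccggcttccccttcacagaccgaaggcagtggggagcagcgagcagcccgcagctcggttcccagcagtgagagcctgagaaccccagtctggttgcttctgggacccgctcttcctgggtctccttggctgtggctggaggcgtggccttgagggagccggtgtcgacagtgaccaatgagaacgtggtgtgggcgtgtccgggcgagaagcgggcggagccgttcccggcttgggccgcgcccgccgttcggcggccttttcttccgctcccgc
Slc25a13, chr6:6217124-6217423, minus strand: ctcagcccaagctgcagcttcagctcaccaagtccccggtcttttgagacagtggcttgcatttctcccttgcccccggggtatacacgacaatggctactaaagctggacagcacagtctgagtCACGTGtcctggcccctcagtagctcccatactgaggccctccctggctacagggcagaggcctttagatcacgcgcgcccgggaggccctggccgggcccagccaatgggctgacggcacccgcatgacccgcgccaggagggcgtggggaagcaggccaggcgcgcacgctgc

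Motifs were searched on both strands in the windows of the 36 members that the RefSeq table holds, and were chosen with the expression values known. The core nuclear receptor element AAGGTCA, part of the longer element TNAAGGTCA of estrogen-related receptors, was found in 1 member, Slc25a34, where it lies as TGACCTT 119 bases before the start. Of the 28 members with a window that were tested in the tissues this is 3.57%, against 3.98% of the 9726 tested genes with a window. A gene was counted where any of its windows held the motif. The longer element itself and the PPAR-type DR1 element (AGGTCA, any base, AGGTCA) matched no member, and 0.843% and 0.0411% of the tested genes with a window. The E-box CACGTG matched 7 members, among them Slc25a13, Slc25a1, Slc25a33 and Slc25a36. Of the tested members with a window 6 held it (21.4%), against 11.8% of tested genes with a window. The NRF1-type element (GCGCA, any base, GCGC) matched Slc25a3 and Slc25a31, of which Slc25a3 was tested (3.57%), against 11.4% of tested genes with a window. These matches describe letters in the windows and show no binding.

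The ADP/ATP exchangers and the phosphate carrier, which together supply the ATP synthase, were the most abundant carriers in WAT per transcript length and rose moderately in BAT. Slc25a4, the exchanger (ANT1) of heart and skeletal muscle, had 486, 671, 561 and 1480.1 CPM in BAT, against 154, 171, 169 and 174 CPM in WAT. BAT 4, the library with the most skeletal muscle marker RNA, stood above the other BAT libraries, and the log2 fold change was 2.11 (SE 0.28, adjusted p = 3.60e-05) with it and 1.73 without it (adjusted p = 2.32e-06). Slc25a5, the exchanger (ANT2) of most other tissues, had 578, 647, 473 and 337 CPM in BAT, against 199, 218, 279 and 246 CPM in WAT, with BAT 4 the lowest of the BAT libraries. It rose by 1.08 (SE 0.20, adjusted p = 0.000484). Slc25a3, which imports phosphate and copper, had 468, 454, 333 and 478 CPM in BAT, against 216, 228, 265 and 252 CPM in WAT. Its libraries did not overlap either, at a log2 fold change of 0.84 (SE 0.15, adjusted p = 0.000385). Slc25a31, the exchanger (ANT4) of the testis, had 1 read in BAT and 8 in WAT and was not tested.

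Carriers of nucleotides and cofactors mostly rose: 7 of 9 were called higher, 1 lower, and 1 was not called, with a median log2 fold change of 1.78. Slc25a33, a pyrimidine nucleotide carrier, had 50.2, 61.3, 46.7 and 49.5 CPM in BAT, against 3.59, 4.31, 7.44 and 6.48 CPM in WAT, and rose by 3.18 (SE 0.23, adjusted p = 1.77e-07). Slc25a51, the NAD carrier, had 544, 668, 653 and 673 CPM in BAT, against 91.9, 114, 115 and 102 CPM in WAT, and rose by 2.58 (SE 0.13, adjusted p = 1.67e-08). Neither gene had a BAT library within the range of WAT. The peroxisomal cofactor carrier Slc25a17 (1.78), the folate and FAD carrier Slc25a32 (1.41) and the S-adenosylmethionine carrier Slc25a26 (1.29) rose by less on the log2 scale.

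The second pyrimidine nucleotide carrier moved the other way. Slc25a36 had 18.5, 21.0, 10.9 and 14.1 CPM in BAT, against 25.8, 27.3, 29.4 and 23.03 CPM in WAT, and fell by 0.73 on the log2 scale (SE 0.21, adjusted p = 0.00896). The tissues did not overlap, but the gap between the highest BAT and the lowest WAT library was small beside that of Slc25a33. Slc25a16, a carrier linked to coenzyme A, averaged 32.3 ± 12.5 CPM in BAT and 25.4 ± 3.55 CPM in WAT (SD, n = 4 each) and was not called (adjusted p = 0.284).

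Among the di- and tricarboxylate carriers 4 of 5 tested members rose and 1 fell. Slc25a35, the nearest relative of Slc25a34, had 63.0, 96.7, 152 and 67.6 CPM in BAT, against 13.8, 9.25, 9.61 and 7.38 CPM in WAT. BAT 3 was highest for both genes, and Slc25a35 rose by 3.12 (SE 0.27, adjusted p = 9.13e-07). Slc25a1, which exports citrate for fatty acid synthesis, had 263, 272, 231 and 181 CPM in BAT, against 159, 135, 156 and 119 CPM in WAT. The ranges came near each other without overlap in CPM, and the log2 fold change was 0.73 (SE 0.16, adjusted p = 0.00173). On the RPKM as deposited Slc25a1 was called lower. Slc25a11, the oxoglutarate-malate exchanger of the malate-aspartate shuttle, rose by 1.08 (SE 0.17, adjusted p = 0.000154). Slc25a10, the dicarboxylate carrier that exchanges malate or succinate for phosphate, fell. It had 47.1, 33.1, 31.5 and 34.8 CPM in BAT, against 139, 138, 167 and 109 CPM in WAT, for a log2 fold change of -1.90 (SE 0.17, adjusted p = 1.09e-06). All BAT libraries thus lay well under the WAT range. Slc25a21, the oxodicarboxylate carrier, had 0 reads in BAT and 2 in WAT.

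**Figure D2:**
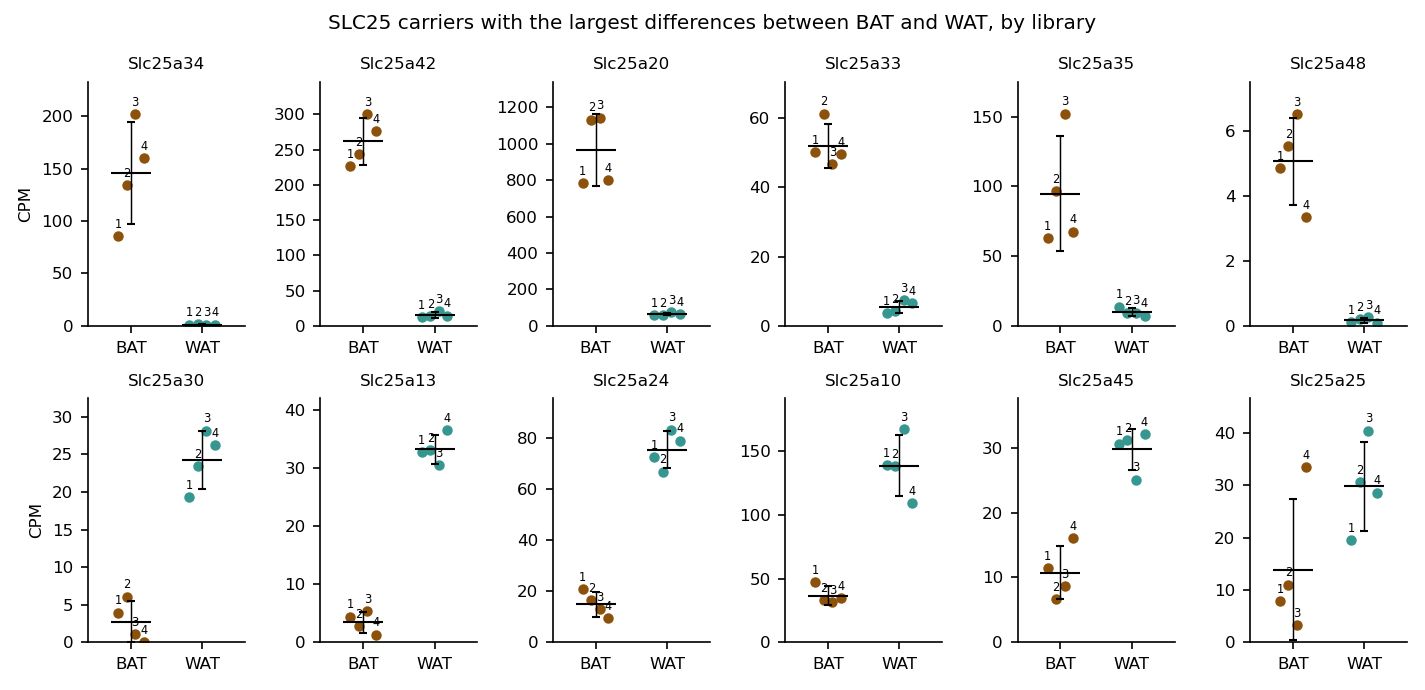
CPM of each BAT (left in each panel, n = 4) and WAT library (right, n = 4), with the replicate number, the mean (line) and the SD (bar), for 6 of the members that rose most in BAT (top row) and the 6 that fell most (bottom row). In the top row no library of the tissues overlaps, as for Slc25a34 at 85.9 to 202 CPM in BAT against 1.08 to 1.47 CPM in WAT. In the bottom row Slc25a25 overlaps because BAT 4 reached 33.5 CPM.

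The amino acid and glutathione carriers were mixed: 5 of 8 tested members rose, 1 fell and 2 were not called. Slc25a39, which imports glutathione, had 464, 545, 558 and 443 CPM in BAT, against 97.6, 118, 129.5 and 128 CPM in WAT. All BAT libraries stood above all WAT libraries, and it rose by 2.08 (SE 0.14, adjusted p = 1.20e-07). Its close relative Slc25a40 had 8.84 to 11.4 CPM in BAT and 7.97 to 10.7 CPM in WAT and was not called (adjusted p = 0.683). The glutamate carrier Slc25a22 (1.55), the ornithine carrier Slc25a15 (1.304), the glycine carrier Slc25a38 (1.14) and the branched-chain amino acid carrier Slc25a44 (0.76) were called higher, all without overlap, with adjusted p of at most 0.000936. Slc25a44 had 76.2, 95.6, 105 and 69.6 CPM in BAT, against 47.5, 50.4, 56.3 and 47.0 CPM in WAT. On the RPKM as deposited it was called lower. Slc25a12 (aralar), the other aspartate-glutamate exchanger beside citrin, had 20.7, 26.0, 14.1 and 59.6 CPM in BAT, against 24.6, 22.3, 24.1 and 28.7 CPM in WAT. Only BAT 4 lay above the WAT range, and the log2 fold change was 0.07 with BAT 4 and -0.36 without it, called in neither fit.

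The calcium-regulated ATP-Mg/phosphate carriers, which adjust the adenine nucleotide pool of the matrix, split. Slc25a23 rose by 1.68 (SE 0.23, adjusted p = 3.91e-05), with 116, 157, 181 and 103 CPM in BAT, against 57.4, 48.4, 38.6 and 29.3 CPM in WAT. Slc25a24 fell by 2.35 on the log2 scale (SE 0.21, adjusted p = 1.40e-06), with 20.7, 16.6, 13.0 and 9.37 CPM in BAT, against 72.3, 66.6, 83.1 and 78.8 CPM in WAT. Neither overlapped between the tissues, and per transcript length Slc25a23 led the class in BAT (64.7 TPM, each gene's length-scaled share of a library) and Slc25a24 in WAT (49.9 TPM). Slc25a25 had 7.93, 11.05, 3.26 and 33.5 CPM in BAT, against 19.6, 30.6, 40.5 and 28.6 CPM in WAT. BAT 4 stood inside the WAT range, and the fall of 1.48 on the log2 scale (SE 0.54, adjusted p = 0.0348) was lost without BAT 1, WAT 2, WAT 3 or WAT 4 (adjusted p 0.0527 to 0.0848). Its row overlaps that of Naif1 on the opposite strand by 1014 bases, and the whole Naif1 row held 9 reads in BAT and 192 in WAT, against 91 and 1215 for Slc25a25. The library kit keeps the strand, per the labels' protocols, but the counting headers give no strand setting, and whether the pair share reads was not tested. Slc25a41 had 0 reads in BAT and 1 in WAT.

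Of the mitoferrins, which bring iron to heme and iron-sulfur cluster synthesis, 1 of 2 rose. Slc25a28 (mitoferrin 2) had 57.3, 56.9, 59.7 and 52.2 CPM in BAT, against 29.1, 32.8, 30.5 and 31.1 CPM in WAT, and rose by 0.86 (SE 0.12, adjusted p = 7.27e-05) without overlap. Slc25a37 (mitoferrin 1), best known from red blood cell precursors, had 33.9, 31.5, 30.4 and 43.5 CPM in BAT, against 43.3, 40.4, 37.1 and 42.9 CPM in WAT. BAT 4 lay above every WAT library and the other BAT libraries below. The log2 fold change was -0.24 (adjusted p = 0.183), and it was called lower without BAT 4 (-0.38, adjusted p = 0.0284), with library totals in place of TMM (-0.45, adjusted p = 0.0231), with no filter (-0.45, adjusted p = 0.0298) and on uncentred RPKM.

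Of the 3 uncoupling-protein relatives outside the Ucp symbols, 2 fell in BAT by limma and 1, Slc25a30, by edgeR or DESeq2, and none rose by any of these, also at an unadjusted p under 0.05. Besides Slc25a30, Slc25a14 fell, with 1.76, 3.87, 1.09 and 0.67 CPM in BAT, against 2.89, 3.78, 4.87 and 5.98 CPM in WAT. BAT 2 lay within the WAT range, only 13 reads stood behind BAT, and the change of -1.20 (SE 0.44, adjusted p = 0.0307) was lost in edgeR (adjusted p = 0.0568), in DESeq2 (adjusted p = 0.0559), without BAT 3 (adjusted p = 0.0520) and without BAT 4 (adjusted p = 0.0625). Leaving out any WAT library removed the gene from the test for want of reads. Slc25a27 had 1.66 to 10.0 CPM in BAT and 0.68 to 2.84 CPM in WAT and was not called (adjusted p = 0.179).

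Of the members with no settled substrate 2 rose and 1 fell among 3 tested. Slc25a46, which takes part in mitochondrial fusion and shape, had 126, 138, 141 and 103 CPM in BAT, against 71.2, 69.4, 76.5 and 63.0 CPM in WAT, and rose by 0.85 (SE 0.14, adjusted p = 0.000175). Slc25a48 had 4.85, 5.52, 6.51 and 3.35 CPM in BAT, against 0.12, 0.21, 0.27 and 0.099 CPM in WAT, and rose by 3.02 (SE 0.38, adjusted p = 2.33e-05). It did so without overlap but on only 32 reads in BAT and 7 in WAT. Slc25a45 had 11.5, 6.63, 8.68 and 16.1 CPM in BAT, against 30.6, 31.1, 25.0 and 32.1 CPM in WAT, and fell by 1.495 on the log2 scale (SE 0.24, adjusted p = 0.000186), again without overlap. Slc25a43 was not tested in the main fit, and was called lower with no filter and without any 1 of the BAT libraries. It had 0, 0, 0 and 1 read in BAT and 136 reads over the WAT libraries, and the authors' deposited table gives it a log2 fold change of -4.31 with an adjusted p of 8.82e-06.

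The remaining untested members were scarce. Slc25a29, a carrier of basic amino acids, had 21 reads in BAT and 39 in WAT, and Slc25a47, a carrier of liver, had 18 and 33. Relative to reads in genes both were higher on average in BAT, with overlap. Slc25a29 averaged 3.21 CPM in BAT and 0.98 CPM in WAT, and Slc25a47 averaged 2.66 CPM and 0.78 CPM. The authors' deposited table has both higher in BAT (edgeR, adjusted p = 0.0442 and 0.0325). Both were called higher without BAT 3, and Slc25a29 also without BAT 2, but neither was called with no filter. Slc25a53 had 8 reads in BAT and 56 in WAT, in a row that overlaps Zcchc18 by 3769 bases on the opposite strand. Slc25a2, Slc25a18 and Slc25a54 had 4, 2 and 0 reads in BAT and 6, 12 and 0 in WAT. With these, Slc25a21, Slc25a31, Slc25a41 and Slc25a43 make up the 10 members left out. At a floor of 3 reads a library, absence cannot be read from such counts in BAT.

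Levels between genes were compared per transcript length, as TPM made from the deposited RPKM. Some members without overlap in CPM did overlap between the tissues in TPM. Slc25a1 had 172 to 258 TPM in BAT and 153 to 215 TPM in WAT, and Slc25a3, Slc25a5, Slc25a11, Slc25a44 and Slc25a46 overlapped too. In BAT the order was Slc25a4 (1139 ± 667 TPM), Slc25a20 (847 ± 148 TPM), Slc25a5 (615 ± 158 TPM), Slc25a39 (475 ± 41.8 TPM) and Slc25a3 (451 ± 77.3 TPM) for the leading 5 (SD, n = 4), and neighbours among them overlapped in their library ranges. In WAT the order was Slc25a5 (409 ± 65.6 TPM), Slc25a3 (358 ± 37.2 TPM), Slc25a4 (340.2 ± 23.2 TPM), Slc25a1 (191 ± 27.96 TPM) and Slc25a39 (160.5 ± 21.5 TPM). Slc25a20 was the seventh there, at 81.4 ± 9.86 TPM. The leading 10 members held 85.4% of the family's TPM in BAT and 76.5% in WAT.

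The mix of carriers shifted with the level. Slc25a20 made up 12.0% to 19.5% of the family's TPM in BAT libraries and 3.29% to 3.58% in WAT libraries. Carriers of nucleotides and cofactors held 16.7% ± 1.57 in BAT and 9.75% ± 0.42 in WAT. The phosphate carrier held 8.47% ± 1.51 in BAT and 15.02% ± 0.52 in WAT, and di- and tricarboxylate carriers 10.4% ± 1.53 in BAT and 16.1% ± 1.71 in WAT (SD, n = 4 each). ADP/ATP exchangers held 26.5% to 42.9% in BAT, highest in BAT 4, and 29.98% to 32.8% in WAT. In amino acid and glutathione carriers the shares overlapped, at 10.3% to 13.2% in BAT and 11.6% to 12.8% in WAT. These shares are descriptions, and no test was made on them.

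**Figure D3:**
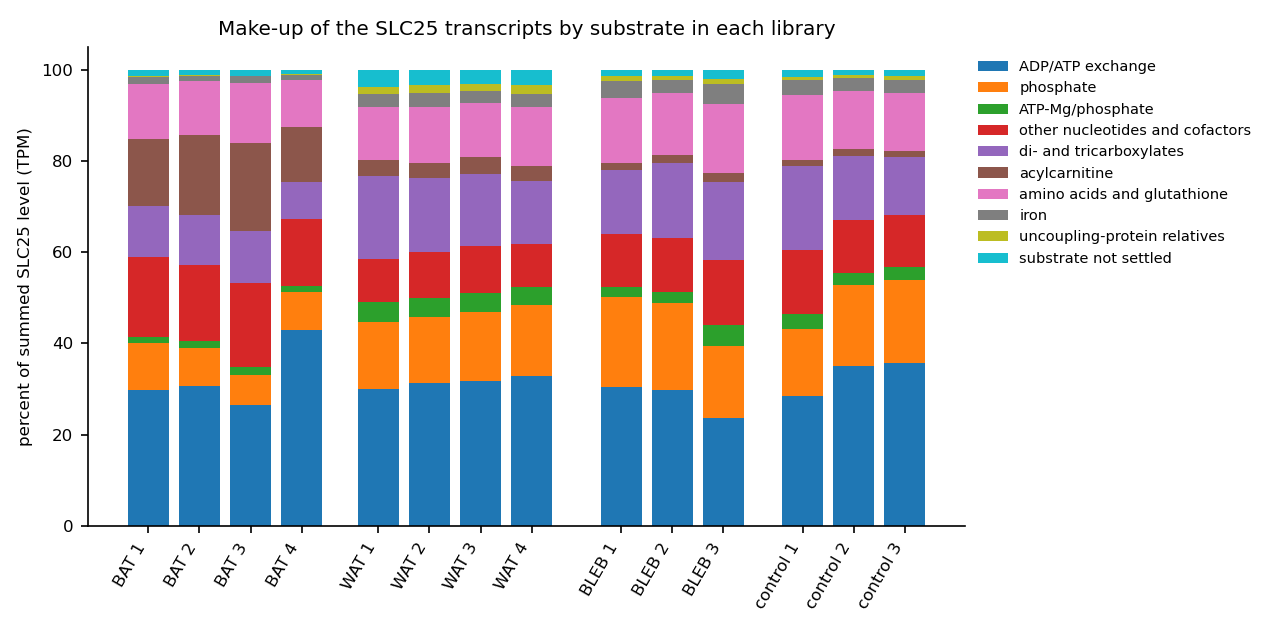
Share of the summed SLC25 TPM (percent) held by each substrate class in each library of BAT, WAT, BLEB and control. The acylcarnitine band (Slc25a20) spans 12.0% to 19.5% in BAT, 3.29% to 3.58% in WAT and 1.31% to 1.90% in the cultured cells.

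Within 3 pairs of carriers that share a substrate, the balance of the partners differed between the tissues. Reads were scaled by exon length, and the share of 1 partner was compared over samples. Slc25a12 made up 83.4%, 90.9%, 73.5% and 97.9% of the aspartate-glutamate exchangers in BAT, against 44.5%, 41.8%, 45.8% and 45.7% in WAT. The difference was 42.0 percentage points, with every BAT library above every WAT library (p = 0.0286 in a two-sided exact permutation test, which with 70 splits can give no smaller value). Since Slc25a12 itself was not called, the shift goes with the low Slc25a13 of BAT. Slc25a37 made up 17.9%, 16.9%, 15.8% and 23.5% of the mitoferrins in BAT, against 35.4%, 31.2%, 30.9% and 33.6% in WAT, a difference of -14.3 points (exact permutation test, p = 0.0286). Slc25a4 made up 49.7%, 54.9%, 58.2% and 83.8% of the ADP/ATP exchangers Slc25a4 and Slc25a5 in BAT, against 47.6%, 48.0%, 41.5% and 45.4% in WAT, a difference of 16.0 points (exact permutation test, p = 0.0286). BAT 1 lay just above the WAT range and BAT 4 far above it, and without BAT 4 the difference was 8.63 points. The 3 p-values are equal, at the smallest value the permutation test can give. A Benjamini-Hochberg adjustment over the 3 pairs therefore leaves each at 0.0286 by construction.

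**Figure D4:**
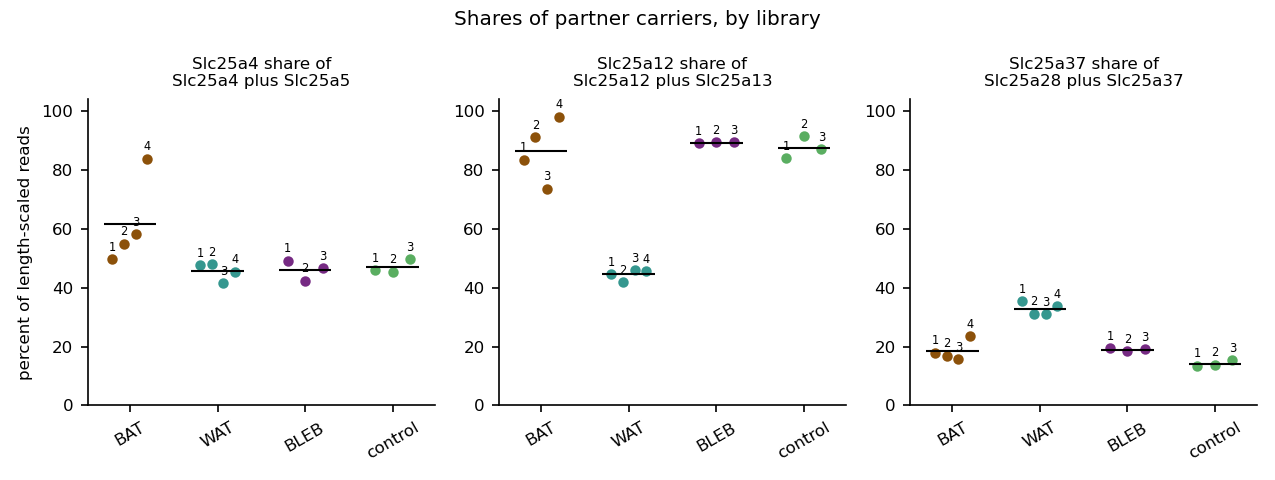
Share (percent of length-scaled reads) of Slc25a4, Slc25a12 and Slc25a37 within their partner pairs in each library, with the replicate number and the group mean (line). Slc25a12 lies at 73.5% to 97.9% in BAT against 41.8% to 45.8% in WAT, and at 88.9% to 89.3% in BLEB cells against 83.8% to 91.4% in control cells.

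The BAT libraries differed among themselves. Of the 37 tested members, 11 were highest in BAT 4 among the BAT libraries: Slc25a3, Slc25a4, Slc25a12, Slc25a22, Slc25a25, Slc25a27, Slc25a37, Slc25a38, Slc25a40, Slc25a45 and Slc25a51. BAT 3, the shallowest library, was highest for 14, among them Slc25a20, Slc25a34 and Slc25a42, BAT 2 for 10 and BAT 1 for 2. BAT 4 was also the lowest of the BAT libraries for 14 members, BAT 1 and BAT 3 for 9 each and BAT 2 for 5. Skeletal muscle markers summed to 36819.9 CPM in BAT 4 and to 2352 to 4908 CPM in the other BAT libraries. Without BAT 4 the tissues still gave 24 members called higher, and without BAT 3 they gave 26. The lower calls numbered 9 without BAT 4 and 8 without BAT 3.

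Across the 8 tissue libraries, the members most like Slc25a20 by Pearson's correlation of log2(CPM + 0.5) included Slc25a39 (0.996), Slc25a51 (0.995), Slc25a42 (0.995) and Slc25a48 (0.994). The points share the tissue contrast and the depth gap, so that these values describe mostly which genes were high in BAT. At the other end stood Slc25a10, at -0.976.

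Transport genes outside the Slc25a symbols were counted over lists written for the pathway. Ucp1 had 12526 to 19940 CPM in BAT, against 0.14 to 1.56 CPM in WAT (log2 fold change 13.80, adjusted p = 2.83e-11). Of 16 genes of inner membrane transport, 11 rose, 3 fell and 2 were not called. Among those that rose were Mpc2, a subunit of the pyruvate carrier, at 868 to 1206 CPM in BAT against 61.9 to 107 CPM in WAT, and Letm1, a potassium and calcium exchanger, at 436 to 786 CPM in BAT against 61.7 to 75.3 CPM in WAT. Ucp2 fell, at 134 to 218 CPM in BAT against 1078 to 1611 CPM in WAT. All 5 genes of the outer membrane list rose, led by the carrier homologue Mtch2 (log2 fold change 2.64). Of 13 genes that import carriers, 11 rose and none fell by limma, edgeR or DESeq2, also at an unadjusted p under 0.05, among them the small TIM chaperones Timm9 (2.84) and Timm10 (2.48), which escort carriers to the TIM22 complex. Called higher were 68.75%, 100% and 84.6% of the genes in the 3 lists, against 30.7% of all tested genes. Called lower were 18.75%, 0% and 0%, against 31.6%. The median log2 fold change was 0.83, 1.11 and 1.53 over the 3 lists, against -0.05 over all tested genes.

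In the cultured cells blebbistatin left few marks on the family. Of 39 members tested, 1 rose, none fell and 38 were not called at an adjusted p under 0.05 (limma, over 12808 genes), and the median log2 fold change was 0.03, against 0.007 over all tested genes. Over all tested genes 0.133% were called higher with blebbistatin and 0.734% lower, 0.867% in all. At an unadjusted p under 0.05, 4 members were higher and 1 lower, or 12.8% of the tested members against 12.4% of all tested genes, so that this count is near the background. The members called lower were 0 by edgeR and 1 by DESeq2, which called 2.80% of all tested genes lower. Groups did not overlap for 4 members higher and 1 lower with blebbistatin, where 9.62% and 9.99% of all tested genes did so. Summed over the family, the level was 3317 ± 300.3 CPM in BLEB cells and 3406 ± 221 CPM in control cells (SD, n = 3 each).

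The member that rose was Slc25a37, mitoferrin 1. It had 51.1, 43.5 and 50.2 CPM in BLEB cells, against 31.6, 29.99 and 31.3 CPM in control cells. All BLEB libraries lay above all control libraries, and the log2 fold change was 0.63 (SE 0.11, adjusted p = 0.0468), or 1.55-fold. The call was a narrow one: it was lost on RPKM (adjusted p = 0.139), with no filter (0.0600), with a minimum count of 30 (0.0517), with the replicate number as a block (adjusted p = 0.183), and without any BLEB library or without control 2 or control 3 (adjusted p 0.0803 to 0.302). It was kept by edgeR and DESeq2, with RLE size factors, with library totals in place of TMM, at other pseudocounts, without the row Rn45s and without control 1. The authors' deposited table gives Slc25a37 a log2 fold change of 0.64 with an adjusted p of 0.00521. Its partner Slc25a28 had 70.3 to 78.7 CPM in BLEB cells and 63.7 to 74.7 CPM in control cells and was not called (adjusted p = 0.692). Slc25a37 made up 19.4%, 18.5% and 19.0% of the mitoferrins in BLEB cells, against 13.5%, 13.9% and 15.3% in control cells, which do not overlap. With 3 samples a group the smallest exact p is 0.1, so no test was made.

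The other members with an unadjusted p under 0.05 were Slc25a24, Slc25a27, Slc25a33 and Slc25a22. Slc25a24 had 28.5, 31.5 and 30.004 CPM in BLEB cells, against 39.9, 49.4 and 64.5 CPM in control cells, at a log2 fold change of -0.74 (SE 0.17, adjusted p = 0.117). The groups did not overlap, DESeq2 called it lower (adjusted p = 0.00521), and so did the fit without control 1 (adjusted p = 0.0220). The authors' deposited table gives it a log2 fold change of -0.77 with an adjusted p of 0.00488. Slc25a27 had 13.0, 10.24 and 14.4 CPM in BLEB cells, against 5.76, 6.91 and 9.70 CPM in control cells (log2 fold change 0.73, adjusted p = 0.215). Slc25a33 had 35.2, 29.2 and 17.1 CPM in BLEB cells, against 14.0, 17.8 and 15.4 CPM in control cells (0.72, adjusted p = 0.287). BLEB 3 lay within the control range there, and without it the gene was called higher (adjusted p = 0.0449). Slc25a22 had 66.2, 65.2 and 75.1 CPM in BLEB cells, against 61.9, 56.1 and 48.2 CPM in control cells (0.32, adjusted p = 0.330).

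**Figure D5:**
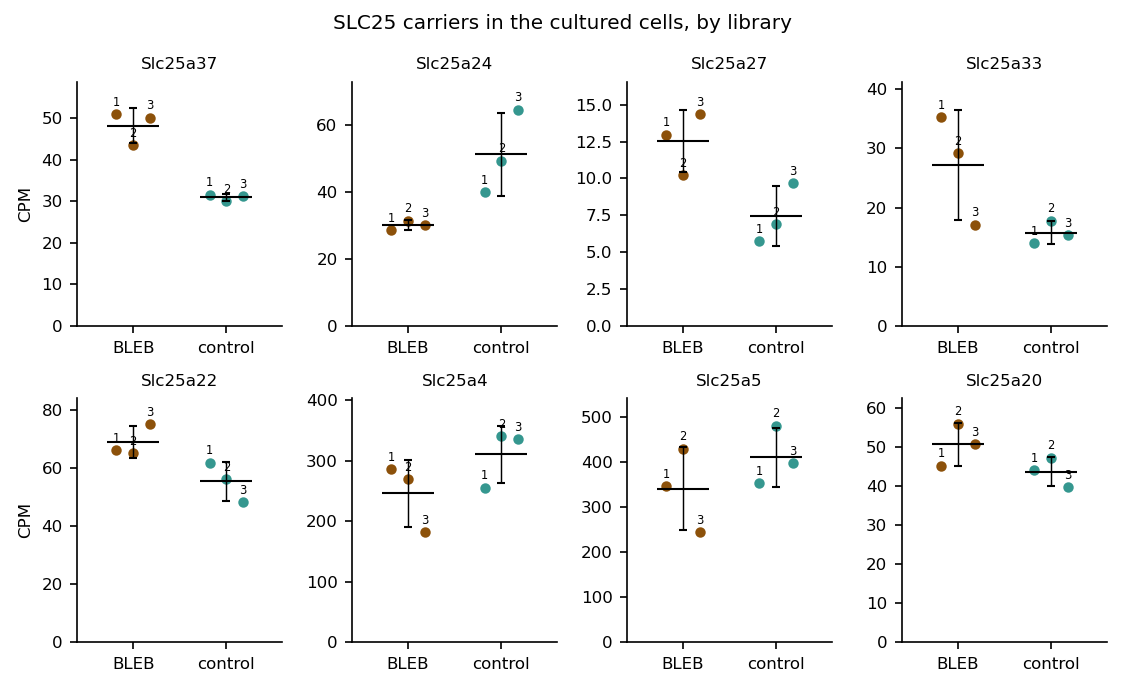
CPM of each BLEB (left, n = 3) and control library (right, n = 3), with the replicate number, the mean (line) and the SD (bar), for the 5 members with an unadjusted p under 0.05 and for Slc25a4, Slc25a5 and Slc25a20. Slc25a37 lies at 43.5 to 51.1 CPM in BLEB cells and at 29.99 to 31.6 CPM in control cells, while the last 3 overlap.

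The carriers that differed most between the tissues were not called with blebbistatin. Slc25a20 had 45.2, 56.0 and 50.7 CPM in BLEB cells, against 44.1, 47.3 and 39.7 CPM in control cells (log2 fold change 0.21, SE 0.12, adjusted p = 0.572). Slc25a42 had 72.6 to 96.2 CPM in BLEB cells and 69.8 to 91.3 CPM in control cells. Slc25a34 had 5.01 to 7.06 CPM in BLEB cells and 4.80 to 19.3 CPM in control cells, with control 1 far above the rest. Slc25a4 averaged 246 ± 55.8 CPM in BLEB cells and 310.4 ± 47.6 CPM in control cells, and Slc25a5 averaged 341 ± 92.7 CPM in BLEB cells and 411 ± 65.0 CPM in control cells (SD, n = 3 each), both with overlap. The share of Slc25a4 in the pair was 46.0% ± 3.43 in BLEB cells and 47.0% ± 2.38 in control cells, and that of Slc25a12 in its pair was 89.2% ± 0.22 in BLEB cells and 87.4% ± 3.85 in control cells.

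Other genes gave few calls in the cells as well. None of the 15 tested inner membrane transport genes, 5 outer membrane genes and 13 import genes was called by limma or edgeR, with median log2 fold changes of -0.09, -0.06 and -0.07. Of these, 2, 0 and 0 had an unadjusted p under 0.05, and DESeq2 called 1 (lower with blebbistatin), 0 and 0. Ucp1 had 8.15, 14.3 and 9.82 CPM in BLEB cells, against 123, 52.6 and 26.1 CPM in control cells (log2 fold change -2.35, SE 0.49, adjusted p = 0.0907). Fibroblast markers summed to 6241 to 7141 CPM in BLEB cells and to 8443 to 14192 CPM in control cells, with 5 of 7 at an unadjusted p under 0.05 and 0 called by limma, 1 by edgeR and 4 by DESeq2, and their part in these values was not tested. Among skeletal muscle, macrophage and endothelial markers, 7 of 12, 6 of 10 and 7 of 8 had at most 3 reads a library in BLEB cells, and 7, 6 and 6 in control cells.

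Side by side, the cultured cells carried a carrier mix unlike that of brown fat. The tables of tissues and cells were normalised separately, so these levels are listed and not tested. Brown adipocyte markers summed to 278 ± 37.4 CPM in BLEB cells and 306 ± 98.8 CPM in control cells (SD, n = 3 each), against the 22373 CPM of BAT. Slc25a20 stood at 72.0 ± 7.10 TPM in BLEB cells and 59.0 ± 4.34 TPM in control cells, where BAT had 847 TPM and WAT 81.4 TPM. Slc25a34 stood at 5.81 ± 1.04 TPM in BLEB cells and 9.35 ± 6.52 TPM in control cells, where BAT had 84.6 TPM and WAT 1.03 TPM. Slc25a13 stood at 3.08 ± 0.59 TPM in BLEB cells and 3.89 ± 1.08 TPM in control cells, where BAT had 1.76 TPM and WAT 23.9 TPM. The low Slc25a13 level and the high Slc25a12 share were thus seen in BAT and in the cells, while the high Slc25a20 and Slc25a34 levels were seen in BAT and not in the cells. In the cells Slc25a3, Slc25a5, Slc25a4, Slc25a1 and Slc25a39 were the leading 5 members and held 63.4% of the family's TPM in BLEB cells and 65.5% in control cells.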

How the data were processed

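The submitters' processing notes name STAR, HOMER, edgeR and genome build mm9, with versions not given in the sources used here. HOMER counted exon reads, 1 row per gene, per the file headers. The authors deposited gene signal, read counts scaled to a common total per experiment (scaled counts). Every value up to 1000 reads came out whole within 0.1 read (100% of values), so read counts were recovered. The authors deposited their log2 fold changes and edgeR p-values in the same tables, and RPKM in others. The deposited RPKM were rescaled to TPM for levels between genes.

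The planned tests expected read counts. On these scaled counts limma (trend, robust) was run on log2(CPM + 0.5), with CPM after TMM normalisation, so fold changes of low genes are understated. Genes passed filterByExpr on the recovered reads (minimum count 10, minimum total 15). P-values were adjusted by Benjamini-Hochberg over all tested genes, with calls under 0.05. Group was the only term and each experiment had its own fit. All members entered the tests and counts, and 1 is not reported by name here, also where its value would place it in an order or a figure. Values per sample are given for the called members with the 10 largest absolute fold changes in each direction, for the leading member of each class and for a few others chosen after their values were seen (among them Slc25a5, Slc25a12, Slc25a37 and Slc25a44). Members and lists (substrate classes, transport and import genes, cell type markers) were chosen with earlier results of these data known. Alternatives were edgeR, DESeq2, other scalings, RPKM, pseudocounts, filters, a replicate block and leaving out each library. The fit was tested on simulated data. R 4.3.3 was used with DESeq2 1.42.0, limma 3.58.1 and edgeR 4.0.16. Row transcripts differed in length between the tables for 9 members. A sheet of myosin genes with 8 tissue columns, and another 3 libraries named in a header of the cell RPKM, were not analysed here. Exact intervals were not made, since replicates carry the error, and read counts limit precision for members under about 30 reads.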

Additional observations from a re-analysis of the deposited data

Results flagged for a closer look

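Of 80 groups of 4 tissue libraries tested for 1 library far from the rest (Dixon's ratio, at its 95% critical value), 4 stood out, and chance flags about 1 in 20. All were in BAT. Slc25a3 was low in BAT 3, at 333 CPM against 454 to 478 CPM in the other BAT libraries. Slc25a16 was high in BAT 3, at 51.0 CPM against 26.0 to 26.1 CPM. Slc25a26 was low in BAT 1, at 25.1 CPM against 28.1 to 28.2 CPM. Slc25a51 was low in BAT 1, at 544 CPM against 653 to 673 CPM. Slc25a3, Slc25a26 and Slc25a51 were called higher in BAT with each library left out in turn, and Slc25a16 was not called in the main test.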

How the results depend on the processing

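In the tissues 23 of the 24 higher calls and 6 of the 8 lower calls held under every alternative but uncentred RPKM. Slc25a48 was untested at a minimum count of 30, and Slc25a14 and Slc25a25 were lost in part. On log2(RPKM + 0.1), which takes reads outside genes into the scale, the median gene moved by -1.51, and 8 members were called higher and 14 lower. These were 21.6% and 37.8% of the tested members, against 6.55% and 74.3% of all tested genes. The 14 lower included Slc25a1 and Slc25a44, which the main test called higher. Centred on library medians, RPKM again gave 24 and 8. The log2 fold changes that changed sign on uncentred RPKM were -0.81 for Slc25a1, -0.69 for Slc25a3, -0.45 for Slc25a5, -0.45 for Slc25a11, -1.42 for Slc25a12, -0.17 for Slc25a15, -1.22 for Slc25a16, -0.20 for Slc25a26, -0.41 for Slc25a27, -0.66 for Slc25a28, -0.094 for Slc25a32, -0.34 for Slc25a38, -1.34 for Slc25a40, -0.73 for Slc25a44 and -0.67 for Slc25a46. Library totals without TMM moved the median gene to -0.26 and turned Slc25a12 to -0.14 and Slc25a40 to -0.099, as did no filter (-0.15 and -0.10). Neither gene was called in the main test.

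With each library left out, higher calls ranged from 24 to 26 and lower calls from 6 to 9. Slc25a12 ranged from -0.36 (without BAT 4) to 0.31, with -0.032 without WAT 2, and Slc25a40 from -0.011 (without WAT 4) to 0.13. The share differences ranged from 8.63 to 19.9996 points for Slc25a4, 38.2 to 46.3 for Slc25a12 and -15.9 to -13.4 for Slc25a37, at an exact permutation p of 0.0571, the smallest that 3 against 4 allows. In the cells higher calls were 0 on RPKM (centred or not), with no filter and at a minimum count of 30, and leaving out libraries gave 0 to 1 higher and 0 to 1 lower. DESeq2 called 1 member lower. Slc25a3 in the cells, uncalled throughout, ranged from -0.11 to 0.22, with -0.047 without BLEB 1, -0.11 without BLEB 2 and -0.079 without control 1. The causes of these changes were not tested.

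Replicate numbers are shared between groups. Correlations of the deviations from the group means were -0.04 to 0.07 for same-numbered tissue libraries and -0.20 to 0.19 for the others. In the cells they were -0.49, 0.32 and -0.26 for same-numbered libraries and -0.46 to 0.45 for the others. With 3 or 4 libraries a group, these values cannot decide whether the numbers mark pairs. With the replicate block the tissues again gave 24 higher and 8 lower, and the cells gave 0 higher and 0 lower.

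Depth limited the scarce members of BAT: Slc25a48, Slc25a30, Slc25a13 and Slc25a14 rested on 13 to 32 reads there.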
